A study of Danio rerio with 61 samples.

Results

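The genes described here are regulators of mitochondrial and lipid metabolism, listed by symbol: the coactivators ppargc1a and ppargc1b, the nuclear receptors esrra, pparaa, pparab and pparg, and the transcription factors nrf1 and tfam. Of these 8 genes, 7 were among the 16890 genes that reached 1 CPM (on the counts-per-million scale) in any library, and the other, pparaa, was below that level in every library. The products of ppargc1a and ppargc1b, PGC-1α and PGC-1β, do not bind DNA themselves. They dock on factors that do, among them ERRα (from esrra), the PPARs and NRF1, which sit at nuclear genes of the respiratory chain and of fatty acid oxidation. In mammals NRF1 also acts on the gene of TFAM, a protein that is imported into mitochondria, packages their DNA and starts its transcription.

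The libraries came from heart ventricles of adult wild-type zebrafish (Danio rerio) of 7 laboratory strains (WIK, TU, TL, SAT, NA, KCL and AB), none of which carried a transgene or a mutation by its labels. The tip of the ventricle was frozen with a chilled copper probe (cryo-injury), and ventricles were taken at 1 or 7 days post cryo-injury (dpci) or from uninjured fish. Each library was made from the RNA of 1 ventricle, with 3 fish per strain and stage and 2 for SAT and TU at 1 dpci, which gives 21 uninjured libraries, 19 at 1 dpci and 21 at 7 dpci. There was no sham-operated group, so injury and operation cannot be told apart. Fish were age-matched within experiments, and the labels give neither age nor sex. The wound, the border zone and the uninjured muscle were in the same tube, so that in these bulk samples fewer cells of a type and less RNA per cell cannot be told apart.

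The libraries held 2943684 to 5538019 counts with a median of 3843819, and mitochondrially encoded genes took 44.2 to 77.7% of them. The median share differed by stage, at 71.0% in uninjured fish, 59.6% at 1 dpci and 66.3% at 7 dpci. TMM library sizes did too, at 2611150 to 4686140 in uninjured fish, 3753270 to 6736880 at 1 dpci and 2725790 to 4515060 at 7 dpci. Heart muscle markers were abundant at every stage, with a summed level of 11745 to 32809 CPM. In 6 libraries the time label differed from the title, and the title was used. Over genes that separate strains, the 6 uninjured libraries named NA or TU all lay closest to the 7 dpci libraries of the opposite name (TU or NA). In the remaining 5 strains 44 of 44 libraries lay closest to libraries of the same name in either of the other stages. Changes within the libraries labelled NA or TU relative to uninjured fish may therefore mix strains, whereas a mean over the 7 strains is the same if the names were exchanged. Which stage carries the exchanged names cannot be told from this, so the names NA and TU are in doubt at 1 and 7 dpci as well. The sequencing read 1 fragment near the 3′ end of each transcript, so counts do not grow with gene length. CPM (with TMM library sizes) can be set side by side between genes as far as their annotated 3′ ends cover these fragments, which was not checked.

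By its counts, ppargc1b was the most abundant regulator. It averaged 42.6 CPM over the 61 libraries and ranked 1010 of the 16890 genes, followed by tfam at 29.4 CPM (rank 1380). nrf1 averaged 4.458 CPM, esrra 3.77 CPM, ppargc1a 1.54 CPM and pparab 0.960 CPM, while pparg averaged 0.0914 CPM. pparaa had 5 counts in all, 1 in each of 5 libraries, and was not tested. Thus most counts of ppargc1a and ppargc1b together were those of ppargc1b, and of the paired PPARα genes pparab was the measured one. Neighbours in that order overlapped over the 61 libraries: ppargc1b ranged over 19.9 to 79.2 CPM and tfam over 18.9 to 45.6 CPM, while nrf1 ranged over 1.096 to 7.65 CPM and esrra over 0.527 to 27.4 CPM.

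**Figure D1:**
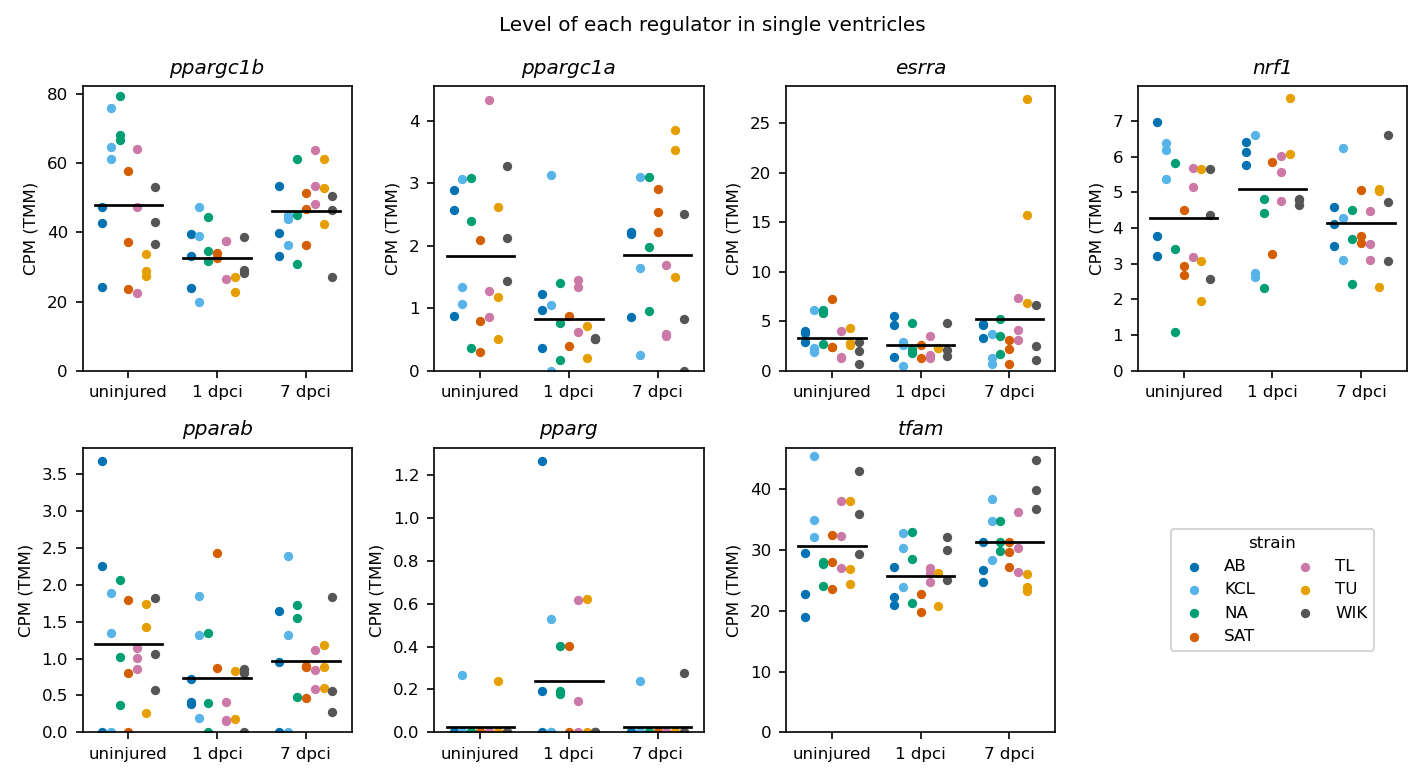
Level of the 7 tested regulators in single ventricles (CPM, TMM library sizes), by stage, with 1 point per fish coloured by strain and a line at the mean of the 7 strain means. ppargc1b, ppargc1a and tfam have lower means at 1 dpci (32.6, 0.828 and 25.7 CPM) than in uninjured fish (47.8, 1.833 and 30.6 CPM) or at 7 dpci (46.1, 1.86 and 31.3 CPM), and the stages overlap in every panel.

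The first comparison asked how the regulators stood 1 day after injury. Both coactivators and tfam were lower at 1 dpci than in uninjured ventricles, by 2.21-fold for ppargc1a, 1.41-fold for ppargc1b and 1.18-fold for tfam. At 7 dpci all 3 were higher than at 1 dpci, by 2.19-fold, 1.41-fold and 1.21-fold in the same order, and none differed from uninjured fish past the threshold. The other regulators passed no test between stages on the mean of the 7 strains. For pparg, which is counted among the 7 members below, that fit gave no usable error, so its missing call is not read as a negative result. Tests were edgeR quasi-likelihood tests on the counts adjusted by the Benjamini-Hochberg method over the 16890 genes, called at an adjusted p below 0.05. At 1 dpci 28.3% of all genes were called and 12.1% were called lower, against 3 of the 7 members, all lower. Between 7 and 1 dpci 22.9% of all genes were called and 10.5% were called higher, against 3 of the 7 members, all higher. Between 7 dpci and uninjured fish edgeR called 6.16% of all genes and 0 of the 7 members, with 0 also at an unadjusted p below 0.05 and 0 by DESeq2.

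ppargc1b (ENSDARG00000101569, GRCz11 chromosome 14, 24934736 to 25001584, plus strand) encodes PGC-1β, which in mammals raises mitochondrial mass and fatty acid oxidation in muscle. Its lowest, median and highest values were 22.4, 47.3 and 79.2 CPM in uninjured ventricles, 19.9, 33.2 and 47.3 CPM at 1 dpci and 27.1, 46.5 and 63.6 CPM at 7 dpci. Of the 19 fish at 1 dpci, 18 were below the uninjured median. By the labels every strain had a lower mean at 1 dpci, although the stages overlapped and only 3 of 7 strains had no overlap. The means were 32.6 ± 3.83 CPM at 1 dpci and 47.8 ± 15.4 CPM in uninjured fish (SD of 7 strain means), a log2 fold change of -0.50 (SE 0.12, edgeR adjusted p = 0.000727). At 7 dpci the mean was 46.1 ± 5.41 CPM, higher than at 1 dpci in 7 of 7 strains (log2 fold change 0.50, SE 0.12, edgeR adjusted p = 0.00092). Relative to uninjured fish the difference at 7 dpci was 0.00 on the log2 scale, with a 95% interval of -0.22 to 0.22. This mean covers strain changes of both signs, with 3 strain means lower and 4 higher by the labels. The largest were -0.69 in KCL (67.2 CPM in uninjured fish, 41.7 CPM at 7 dpci), -0.64 in NA and 0.80 in TU. No ppargc1b change at this step passed within a strain, and the uninjured names NA and TU are in doubt.

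ppargc1a (ENSDARG00000067829, chromosome 7, 70578985 to 70665965, minus strand) encodes PGC-1α, the coactivator best known for driving mitochondrial biogenesis in mammalian muscle and brown fat. It was read from few counts, 0 to 16 per library. Its lowest, median and highest values were 0.299, 1.44 and 4.34 CPM in uninjured ventricles, 0, 0.716 and 3.14 CPM at 1 dpci and 0, 1.97 and 3.86 CPM at 7 dpci. At 1 dpci 17 of 19 fish were below the uninjured median, and the exceptions were a KCL fish at 3.14 CPM and a TL fish at 1.46 CPM. The log2 fold change at 1 dpci was -1.14 (SE 0.33, edgeR adjusted p = 0.0066), with lower strain means in 7 of 7 strains. Between 7 and 1 dpci it was 1.13 (SE 0.33, edgeR adjusted p = 0.00839), with higher means in 6 of 7 strains and TL as the exception. This second call rested in part on TU, whose 3 fish at 7 dpci had 1.50, 3.54 and 3.86 CPM: without TU the change was 0.93 (edgeR adjusted p = 0.0512).

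tfam (ENSDARG00000063145, chromosome 12, 7254112 to 7263958, plus strand) moved the same way by less. Its lowest, median and highest values were 18.9, 29.4 and 45.6 CPM in uninjured ventricles, 19.8, 26.3 and 33.04 CPM at 1 dpci and 23.3, 30.4 and 44.9 CPM at 7 dpci. At 1 dpci 14 of 19 fish were below the uninjured median, and by the labels the strain means were lower in 6 of 7 strains, with NA as the exception. The log2 fold change was -0.24 (SE 0.08, edgeR adjusted p = 0.0132) at 1 dpci and 0.27 (SE 0.08, edgeR adjusted p = 0.00589) between 7 and 1 dpci, where all 7 strain means were higher. With no filter on low counts, neither tfam change passed (edgeR adjusted p = 0.137 and 0.0749).

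Besides the dependences given above for ppargc1a and tfam, the calls of all 3 genes at both steps ended together under 1 alternative model. The study's methods used RUVg, which takes factors of unwanted variation from genes that vary little, and the number of factors is not given in the sources used here. With 1 such factor as a covariate, 0 of 7 members and 68 of 16890 genes were called between 1 dpci and uninjured fish, and 0 members and 94 genes between 7 and 1 dpci. ppargc1b then changed by -0.32 and 0.36 on the log2 scale, while ppargc1a and tfam were at 0.03 each at 1 dpci relative to uninjured fish. The factor itself ran from -0.0376 to 0.276 at 1 dpci, from -0.190 to 0.0157 in uninjured fish and from -0.148 to 0.0629 at 7 dpci. 77.2% of its variance lay between the stages, so the factor and the stage cannot be told apart here. The lower CPM of ppargc1b and tfam at 1 dpci also rests on the TMM library sizes. Their median raw counts were 147 and 105 in uninjured fish and 164 and 124 at 1 dpci, while those of ppargc1a were 6 and 4. The median library total was 4114558 counts in uninjured fish and 3683461 at 1 dpci. By these medians the direction of the ppargc1b and tfam changes, and not only their size, rests on the scaling.

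**Figure D2:**
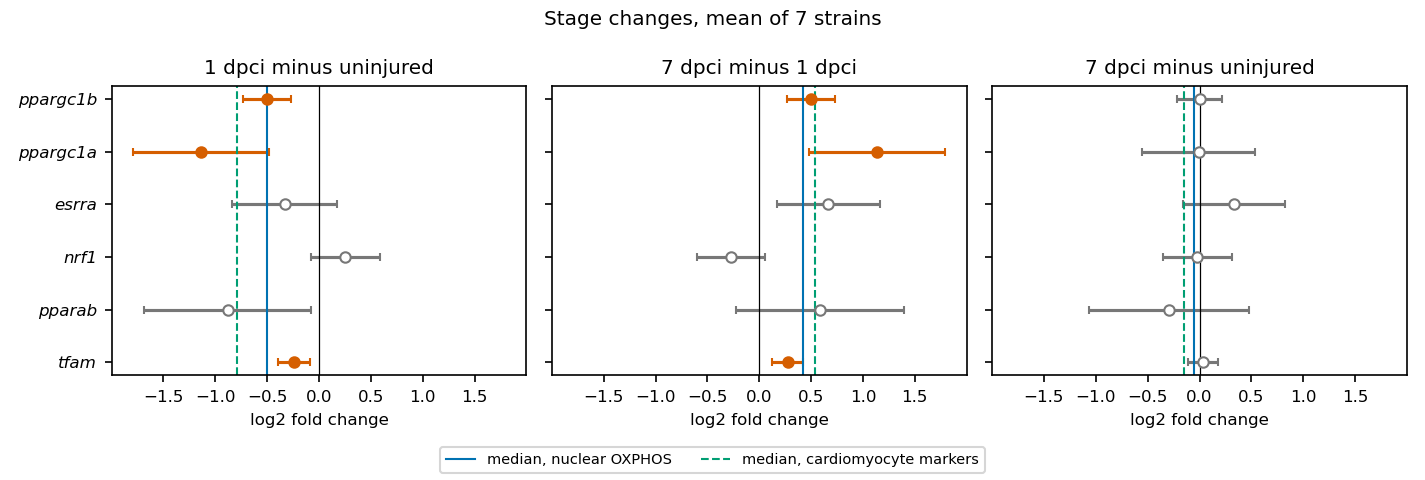
Log2 fold changes of 6 regulators between stages, as means over 7 strains with 95% intervals (filled points passed the test, pparg is not drawn because its fit gave no usable error), beside the medians of 89 nuclear OXPHOS genes and of 9 cardiomyocyte markers. ppargc1b, ppargc1a and tfam are left of 0 at 1 dpci and right of 0 between 7 and 1 dpci, and all 6 intervals include 0 between 7 dpci and uninjured fish.

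Among the nuclear receptors, esrra, pparab and pparg showed 3 different kinds of pattern. esrra (ENSDARG00000069266, chromosome 21, 26606741 to 26634099, plus strand) encodes ERRα, an orphan receptor that PGC-1 coactivators use at genes of the respiratory chain. Its lowest, median and highest values were 0.706, 2.85 and 7.23 CPM in uninjured ventricles, 0.527, 2.27 and 5.51 CPM at 1 dpci and 0.692, 3.54 and 27.4 CPM at 7 dpci. The stages overlapped, and only the highest values at 7 dpci stood apart from the rest. At 1 dpci the log2 difference from uninjured fish was -0.33 (95% interval -0.84 to 0.18, edgeR adjusted p = 0.42). Between 7 and 1 dpci it was 0.67 (95% interval 0.17 to 1.16), which just missed the threshold (edgeR adjusted p = 0.0501). That difference passed in 12 of 17 alternative settings and in 36 of the 61 fits that left out 1 library, and it was 0.33 without TU (edgeR adjusted p = 0.474).

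The libraries labelled TU at 7 dpci were those in which esrra stood apart. The 3 TU fish at 7 dpci had 6.88, 27.4 and 15.7 CPM from 23, 93 and 53 counts, against 2.33 and 2.27 CPM in the TU fish at 1 dpci and 2.85, 2.61 and 4.37 CPM in those labelled uninjured TU. The highest of the other 18 fish at 7 dpci, a TL fish, had 7.31 CPM, so 2 of the 3 TU fish were above every other library and the third was not. At 7 dpci esrra differed among strains (edgeR adjusted p = 0.000587). It was the only member to do so, and 1 of 7 is near the 13.5% of all genes. Without TU that test gave an edgeR adjusted p of 0.506. Within TU the log2 fold change was 2.84 between 7 and 1 dpci (edgeR adjusted p = 0.0268) and 2.34 between 7 dpci and the libraries labelled uninjured TU (edgeR adjusted p = 0.0168). Without TU replicate 51, the fish at 27.4 CPM, these were 2.31 (edgeR adjusted p = 0.163) and 1.81 (edgeR adjusted p = 0.169). Without either TU fish at 1 dpci the first kept its size, at 2.856 without replicate 48 and 2.855 without replicate 54, but not its call (edgeR adjusted p = 0.435 and 0.11). The TU group at 1 dpci was then 1 fish, assumed to vary like the fish of the other groups. The second was 2.255 and 2.202 without the uninjured TU replicate 1 or 2, which also ended its call (edgeR adjusted p = 0.0888 and 0.0918). The time labels of TU replicate 49 at 7 dpci and of uninjured TU replicate 1 differ from their titles, and without the 6 such libraries the changes were 3.21 (edgeR adjusted p = 0.033) and 2.62 (0.0688). With the RUVg factor they were 2.33 (edgeR adjusted p = 0.224) and 2.25 (0.0214). Whether the change of esrra from uninjured fish to 7 dpci differed among strains missed the threshold (interaction, edgeR adjusted p = 0.0901). It passed in 4 of 17 alternative settings, listed with their values in the closing section. Since TU is 1 of the strains whose uninjured libraries were nearest to NA, the second of these changes may mix strains, whereas the first does not use the uninjured libraries. Of the 5 NA and TU libraries at 1 dpci, 4 lay closest to the 7 dpci libraries of their own name.

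**Figure D3:**
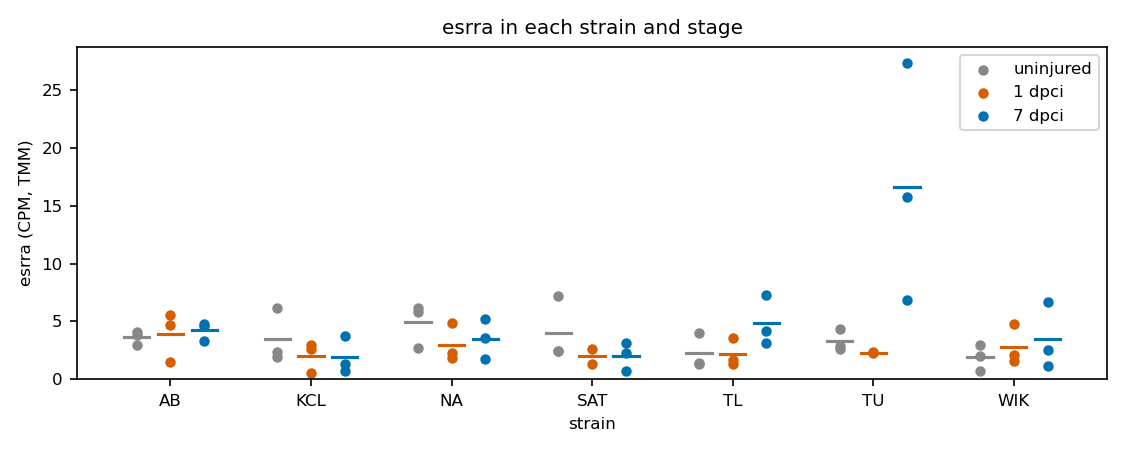
esrra in each strain at the 3 stages (CPM, TMM library sizes), with 1 point per fish and a line at the group mean. The TU fish at 7 dpci had 6.88, 15.7 and 27.4 CPM, while the highest of the other fish was a TL fish with 7.31 CPM at 7 dpci.

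pparab (ENSDARG00000054323, chromosome 25, 2198781 to 2254112, plus strand) is a zebrafish gene for PPARα, the receptor that switches on fatty acid oxidation genes when fatty acids bind it. It had 0 to 12 counts per library. Its lowest, median and highest values were 0, 1.06 and 3.67 CPM in uninjured ventricles, 0, 0.412 and 2.42 CPM at 1 dpci and 0, 0.890 and 2.38 CPM at 7 dpci. At 1 dpci 15 of 19 fish were below the uninjured median, and SAT had the highest strain mean, from fish at 0.872 and 2.42 CPM, although 2 KCL fish (1.85 and 1.32 CPM) and an NA fish (1.35 CPM) were above the lower of these. The log2 difference at 1 dpci was -0.88 (95% interval -1.68 to -0.08) and did not pass after adjustment (edgeR adjusted p = 0.107). It passed without the SAT libraries (-1.20, edgeR adjusted p = 0.0397) and without NA replicate 30 at 1 dpci (edgeR adjusted p = 0.0468), so at this depth the call rested on which fish were included. Between 7 and 1 dpci the difference was 0.59 (edgeR adjusted p = 0.374).

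pparg (ENSDARG00000031848, chromosome 11, 609516 to 669558, minus strand) encodes PPARγ, the receptor of fat cell formation and fat storage, which macrophages also use. Its counts were nearly confined to 1 dpci, with 23 counts in 10 of 19 libraries, against 2 counts in 2 of 21 uninjured libraries and 2 counts in 2 of 21 libraries at 7 dpci. The rates over the summed libraries were 0.237 CPM at 1 dpci (exact 95% Poisson interval 0.150 to 0.355), 0.0284 in uninjured fish (0.00344 to 0.102) and 0.0256 at 7 dpci (0.00310 to 0.0925), intervals that cover counting error only. A single AB fish gave 7 of the 23 counts, and 6 of 7 strains had a count at 1 dpci, all except WIK. That AB fish (1.264 CPM) was the only library in which pparg reached the 1 CPM needed to enter the tests, so its counts are a description with no test, and the fit across all genes gave no usable error for it. Macrophage markers moved with it: 9 of 9 were called higher at 1 dpci with a median log2 fold change of 2.19, and their summed level was 44.7 to 526 CPM at 1 dpci and 14.2 to 168 CPM in uninjured fish. At 7 dpci, where pparg again had 2 counts, 5 of the 9 were still called higher than in uninjured fish, 4 were called lower than at 1 dpci, and the summed level was 34.8 to 238 CPM. Of 6 neutrophil markers 5 were called higher at 1 dpci (mpx by 4.43 and mmp9 by 3.73) and 3 lower at 7 than at 1 dpci. The part of either cell type in the pparg counts was not tested.

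nrf1 (ENSDARG00000000018, chromosome 4, 15081385 to 15103696, minus strand) encodes a factor that binds promoters of nuclear respiratory genes, and it leaned the other way from tfam, the gene it acts on in mammals. Its lowest, median and highest values were 1.096, 4.36 and 6.98 CPM in uninjured ventricles, 2.32, 4.82 and 7.65 CPM at 1 dpci and 2.36, 4.10 and 6.60 CPM at 7 dpci. At 1 dpci 15 of 19 fish were above the uninjured median, with TU highest in mean, from fish at 6.08 and 7.65 CPM, and NA lowest in mean at 3.86 CPM. The log2 difference of 0.25 (95% interval -0.08 to 0.58) did not pass (edgeR adjusted p = 0.311), nor did that of -0.27 between 7 and 1 dpci (edgeR adjusted p = 0.283).

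The strains were compared next, at each stage and in their responses. In uninjured fish 1 of 7 members differed among strains, a count near the 13.1% of all genes. This was ppargc1b (edgeR adjusted p = 0.0114), with means of 71.2 CPM in the libraries labelled NA and 67.2 CPM in KCL, and of 29.995 CPM in those labelled TU. The 3 NA values (79.2, 67.9 and 66.6 CPM) lay above all 3 TU values (33.7, 28.8 and 27.5 CPM). The strain names of these libraries are in doubt, and the difference was lost without NA (edgeR adjusted p = 0.0882), without TU (0.0807) and without both (0.265). At 1 dpci edgeR called 0 of 7 members among strains, against 11.4% of all genes (0 also unadjusted and by DESeq2), and the strain means of ppargc1b lay between 24.9 CPM in TU and 36.9 CPM in NA. tfam was lowest in TU and highest in WIK at 7 dpci (24.4 and 40.6 CPM), a difference among strains that missed the threshold (edgeR adjusted p = 0.108).

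Within single strains 3 of 147 member tests passed, no larger a share than the 2.94% of the tests over all genes. Besides the esrra changes in TU this was ppargc1b in NA, with 34.6, 44.3 and 31.7 CPM at 1 dpci and 79.2, 67.9 and 66.6 CPM in the libraries labelled uninjured NA. These groups did not overlap (log2 fold change -0.95, edgeR adjusted p = 0.0281), and the call ended without NA replicate 28 or 30 at 1 dpci or without uninjured replicate 1, 2 or 4 (edgeR adjusted p = 0.0617 to 0.122). In KCL, whose strain names were not in doubt, ppargc1b had 39.03, 19.9 and 47.3 CPM at 1 dpci and 75.8, 64.5 and 61.1 CPM in uninjured fish, again without overlap. The log2 difference was -0.92 (edgeR adjusted p = 0.0568). It passed in 9 of 17 alternative settings, which here include the 2-fold threshold on the same fit. Whether the stage changes of a member differed among strains was tested by interaction: in edgeR 0 of 7 members passed for 1 dpci minus uninjured, 7 minus 1 dpci and 7 dpci minus uninjured, against 1.81%, 0.0947% and 3.54% of all genes. At an unadjusted p below 0.05 there were 0, 0 and 2, and by DESeq2 0, 0 and 1. By the labels, a lower ppargc1b at 1 dpci is therefore the direction of all 7 strains, and no difference between strains in its size was shown. If the uninjured names NA and TU were exchanged, NA would be an exception. Its mean was 36.9 CPM at 1 dpci, against 29.995 CPM in the fish labelled uninjured TU. The interactions with uninjured fish also use these names.

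The nuclear-encoded genes of oxidative phosphorylation (OXPHOS), on which some of these regulators are known to act in mammals, were lower at 1 dpci and higher again at 7 dpci. Of 89 measured genes 77 were called lower and 2 higher at 1 dpci relative to uninjured fish, with a median log2 fold change of -0.50, beside 0.07 over all genes tested. Between 7 and 1 dpci 77 were called higher and 1 lower, with a median of 0.42, and between 7 dpci and uninjured fish 2 were higher and 5 lower, with a median of -0.05. With the RUVg factor 0 of the 89 were called at either of the first steps. The largest changes at 1 dpci were those of the cytochrome c oxidase subunit genes cox6a1 (1.40), cox4i1l (-0.99) and cox7a1 (-0.96). All 13 mitochondrially encoded protein genes followed, with medians of -0.81 and 0.65. On the same scale ppargc1b changed by -0.50 and 0.50, ppargc1a by -1.14 and 1.13 and tfam by -0.24 and 0.27. Heart muscle markers moved with them: 7 of 9 cardiomyocyte markers were called lower at 1 dpci (median -0.79) and 5 higher at 7 dpci than at 1 dpci (median 0.54). Their summed level was 11745 to 24202 CPM at 1 dpci, 20979 to 32809 CPM in uninjured fish and 15121 to 31419 CPM at 7 dpci, and their part in the changes of the regulators was not tested.

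By the labels, SAT and TU are the strains in which the OXPHOS genes recovered least. The mean of the 89 genes changed between 7 and 1 dpci by -0.16 on the log2 scale in SAT and 0.16 in TU, against 0.82 in NA and 0.28 to 0.61 in the other strains. The estimates for the coactivators were not in that order. The order is not resolved, however: the SE of the ppargc1b change within a strain ran from 0.30 in NA to 0.35 in TU. No member passed the interaction of strain with this step. In SAT ppargc1b had 36.3, 51.4 and 46.6 CPM at 7 dpci and 32.5 and 33.9 CPM at 1 dpci (log2 difference 0.43). In the same fish ppargc1a had 2.23, 2.90 and 2.54 CPM at 7 dpci and 0.872 and 0.404 CPM at 1 dpci. Neither group pair overlapped, which is a weak measure with 3 and 2 fish. TU had the largest difference in ppargc1b of the 7 strains (1.07), with 42.5, 52.7 and 61.1 CPM at 7 dpci and 27.02 and 22.7 CPM at 1 dpci, and the smallest in tfam (0.06). None of these passed within its strain. At 7 dpci SAT and TU together were compared with the other 5 strains: 28 of 89 OXPHOS genes were lower and 0 higher in SAT and TU (median -0.41). The 2 strains were not alike in this. The mean log2 CPM of the 89 genes was 7.01 in SAT and 7.46 in TU. It was 7.49 in AB, 7.54 in KCL and TL, 7.63 in WIK and 8.04 in NA, so TU lay close to all of these but NA. Of the 7 members edgeR called 0, against 2.33% of all genes (3 at an unadjusted p below 0.05, 0 by DESeq2). With so small a share over all genes, 0 calls among 7 genes do not set the members apart from the OXPHOS genes. ppargc1b differed by 0.10 (95% interval -0.24 to 0.45), ppargc1a by 0.90 and esrra by 0.75 (edgeR adjusted p = 0.329 and 0.344), and tfam by -0.29 (SE 0.12, edgeR adjusted p = 0.218). The grouping of SAT with TU was taken with results of these data known, and the name TU is in doubt. With SAT alone set against AB, KCL, TL and WIK, which leaves out the names NA and TU, tfam differed by -0.16 (edgeR adjusted p = 0.72).

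**Figure D4:**
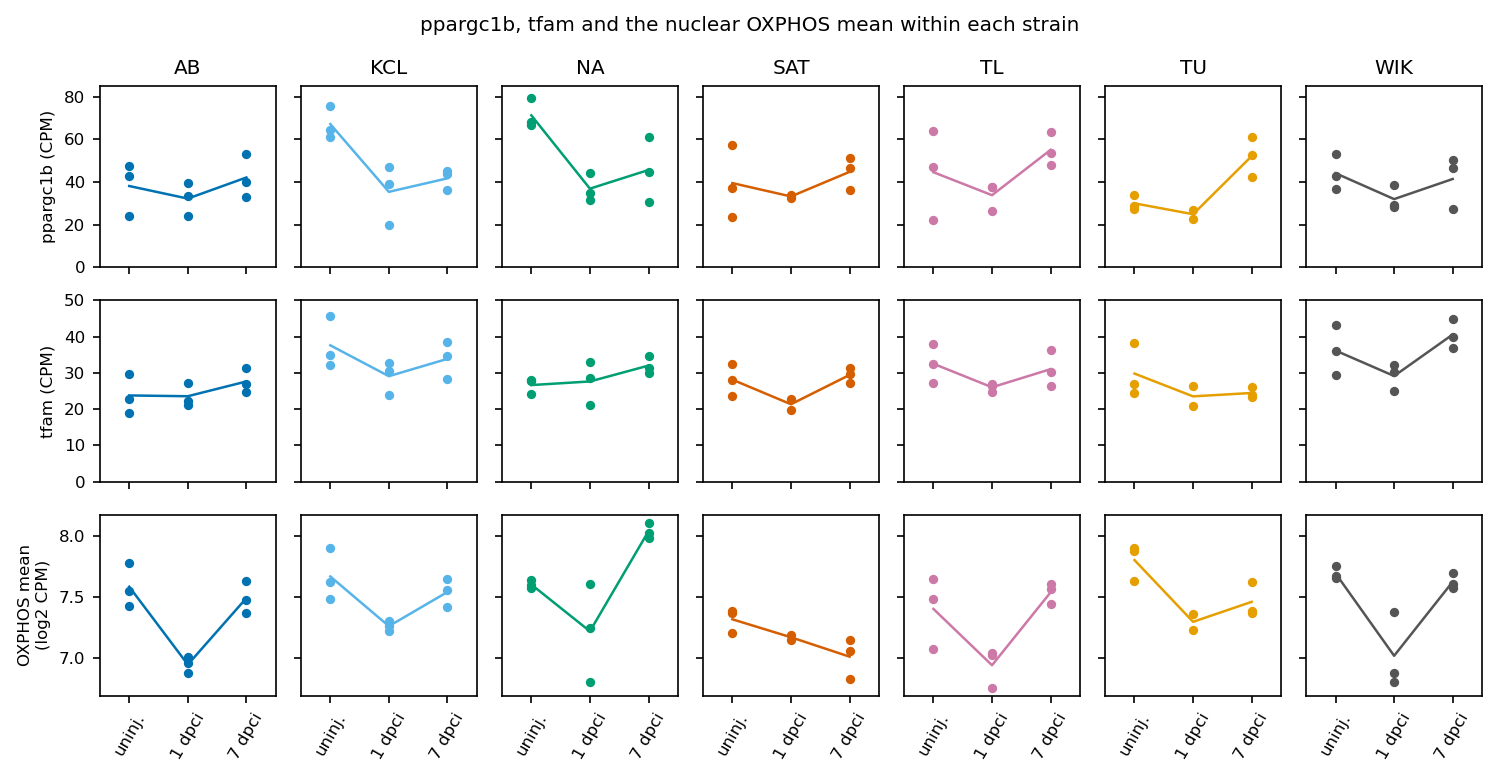
ppargc1b and tfam (CPM) and the mean log2 CPM of 89 nuclear OXPHOS genes in each strain, with 1 point per fish and a line through the group means at the 3 stages. In SAT the OXPHOS mean changed by -0.16 between 7 and 1 dpci while ppargc1b changed by 0.43 on the log2 scale, and in NA the OXPHOS mean changed by 0.82.

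The regulators were then set beside the OXPHOS mean fish by fish, within each stage and with strain and stage means subtracted. Of these 28 relations 4 had an unadjusted permutation p below 0.05 and 0 passed over all genes tested, where 0.42% of genes passed in uninjured fish, 0.349% at 1 dpci, 1.75% at 7 dpci and 1.34% within strain and stage. These shares count the 89 OXPHOS genes that make up the mean, which are related to it by construction. They are therefore not a neutral background for the regulators. For ppargc1b, the regulator read from the most counts, Pearson's r was 0.01, -0.24 and -0.10 in uninjured fish, at 1 dpci and at 7 dpci (n = 21, 19 and 21), and -0.16 within strain and stage. No stage thus had a positive r above 0.01 for this gene. For tfam r was positive throughout, at 0.24, 0.33 and 0.24 in the stages and 0.30 within strain and stage. The relation with the smallest permutation p was that of pparab within strain and stage (r = 0.40, Spearman's rho 0.37, permutation p = 0.00912, adjusted p = 0.213), which was 0.33 without the 2 fish farthest from the median. At 1 dpci it was 0.56 (permutation p = 0.014, adjusted p = 0.433), and there pparab was also related to the mean of the cardiomyocyte markers (r = 0.72). The OXPHOS mean itself had r of 0.65, 0.74 and 0.52 with that marker mean in uninjured fish, at 1 dpci and at 7 dpci. Within strain and stage this r was 0.60. The part of the cardiomyocyte markers in the relations was not tested.

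**Figure D5:**
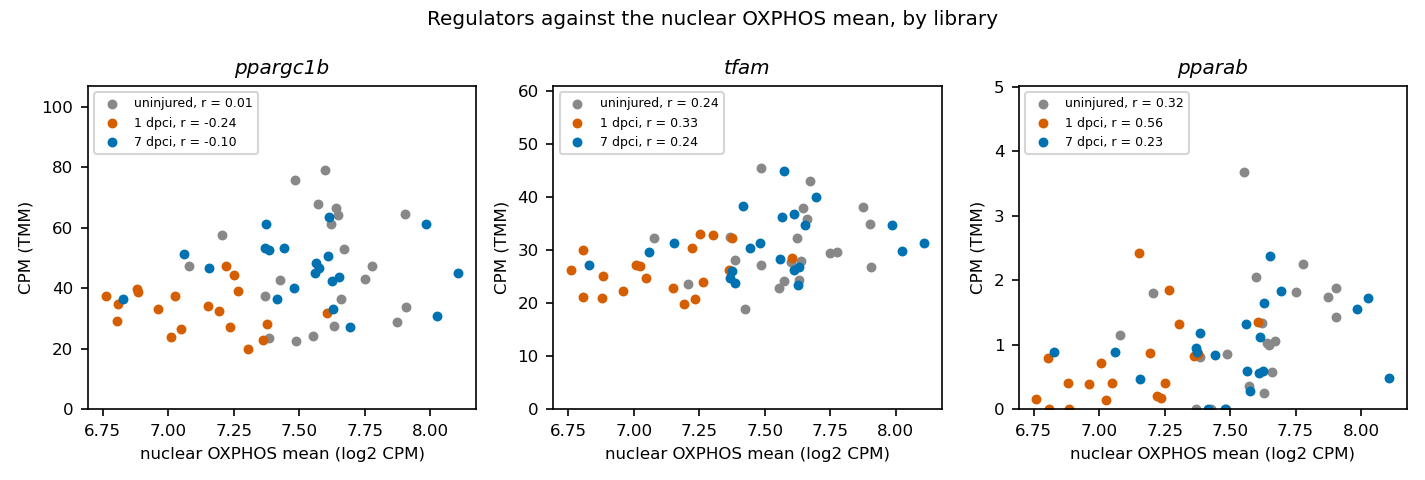
ppargc1b, tfam and pparab (CPM) against the mean log2 CPM of 89 nuclear OXPHOS genes, with 1 point per library coloured by stage; the r in each legend was computed on log2 CPM. ppargc1b has r of 0.01, -0.24 and -0.10, tfam 0.24, 0.33 and 0.24 and pparab 0.32, 0.56 and 0.23 in uninjured fish, at 1 dpci and at 7 dpci.

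Over the 21 strain and stage means, the genes most like ppargc1b were atp2a2a, which encodes a calcium pump of the heart's sarcoplasmic reticulum (r = 0.80), esd (0.78) and mef2aa, a muscle transcription factor (0.78), out of 5418 genes of at least 5 CPM. Those most like tfam were stxbp5a (0.86), C5H12orf65 (0.84) and cfd (0.82). The OXPHOS mean had r of 0.43 with ppargc1b and 0.49 with tfam on the same points, which share stage and strain, so these values describe the pattern and were not tested.

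The partners of the regulators did not move as 1 group. Of 15 cofactors of PGC-1 and the receptors, 2 were higher and 3 lower at 1 dpci, where 28.3% of all genes were called, so the count of 5 is near the background. The most changed was pprc1, the third gene of the PGC-1 family, known as a rapidly induced growth-responsive member in mammals. It averaged 4.89 CPM at 1 dpci and 1.05 CPM in uninjured fish (log2 fold change 2.03, edgeR adjusted p = 1.07e-06), opposite to ppargc1a and ppargc1b, and was lower at 7 than at 1 dpci by 1.65 on the log2 scale. mybbp1a, a repressor that binds PGC-1α, was also higher at 1 dpci (0.68) and lower at 7 than at 1 dpci (-0.70). The coactivator ncoa2 (-0.53), the AMPK subunit prkaa2 (-0.51) and the corepressor ncor1 (-0.57) were lower at 1 dpci. ncoa2 and prkaa2 were higher at 7 than at 1 dpci (0.44 and 0.48), whereas ncor1 stayed below uninjured fish at 7 dpci (-0.45, edgeR adjusted p = 0.000325). Of 12 related receptors 1 was higher and 3 were lower at 1 dpci, again near the 28.3% of all genes. These were rxrga, a retinoid X receptor, by 1.90, and the thyroid hormone receptor thrb, the ERRγ gene esrrga and the retinoid X receptor rxrbb by -0.64, -0.48 and -0.42.

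Of 13 genes of mitochondrial DNA transcription and copying, the machinery that works beside TFAM, 2 were lower and 1 higher at 1 dpci, no larger a share than the 28.3% of all genes. twnk, the mitochondrial helicase, averaged 1.45 CPM at 1 dpci and 5.65 CPM in uninjured fish (log2 fold change -1.76, edgeR adjusted p = 1.14e-06), and tfb2m, the transcription factor that opens the promoter with TFAM, 26.0 and 41.8 CPM (-0.70). 1 of the 2 gene models named top1mt, a mitochondrial topoisomerase, was higher (1.36). Between 7 and 1 dpci twnk and tfb1m were higher (1.08 and 0.76) and that top1mt model lower (-1.39). tfb2m was also higher at 7 than at 1 dpci (0.31, edgeR adjusted p = 0.0348), but still lower than in uninjured fish (-0.39, edgeR adjusted p = 0.015).

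Genes known as PPARα targets in mammals followed the direction of the OXPHOS genes in part. Of 27 tested, 14 were lower and 2 higher at 1 dpci, where 28.3% of all genes were called and 12.1% were called lower. Their median log2 fold change was -0.33, beside 0.07 over all genes, whereas with the RUVg factor 0 were called and the median was 0.35. Those lower included the fatty acid carrier fabp3, with 453 CPM at 1 dpci and 808 CPM in uninjured fish (-0.87), the carnitine palmitoyltransferase cpt1b (-0.78) and the acyl-CoA synthetase acsl1b (-0.80). The 2 that were higher were plin2, which coats lipid droplets (1.53), and angptl4, an inhibitor of lipoprotein lipase (1.05), and both were lower at 7 than at 1 dpci (-1.77 and -1.32). In all, 7 were higher and 2 lower at 7 than at 1 dpci, where 22.9% of all genes were called and 10.5% were called higher. Those higher included acsl1a (0.89) and the carrier ucp3 (1.05). fabp3, cpt1ab and acadm were still lower at 7 dpci than in uninjured fish (-0.50, -0.49 and -0.34). Of 8 genes of PPARγ and fat cells 2 were higher and 1 lower at 1 dpci, a count of 3 beside the 28.3% of all genes: cebpa (1.42) and the fatty acid-binding fabp11a (0.66) were higher, and cfd was lower (-1.01). cebpa (-1.27), lipea, a lipase gene (-1.17), and fabp11a (-1.01) were lower at 7 than at 1 dpci. plin1, a marker of fat droplets in fat cells, had a mean of 0.0889 CPM at 1 dpci and 0.0434 CPM in uninjured fish.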

How the data were processed

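RNA of single ventricles was made into QuantSeq 3′ FWD libraries. The authors trimmed reads (bcl2fastq 2.20.0, Trim Galore 0.6.4), aligned them to GRCz11 with STAR 2.7.6a and deposited raw counts per gene (32520 genes). The deposited log2 values are the authors' log2 of values that were already variance-stabilized, so 2 to their power was used, only as an alternative. No column was left unmapped.

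From the counts, the 16890 genes that reached 1 CPM in any of 61 libraries were fitted in edgeR 4.0.16 (R 4.3.3) with TMM factors, a trended dispersion and quasi-likelihood F-tests over 21 strain-by-stage groups. Contrasts were means over 7 strains, changes within a strain, differences among strains and interactions. P-values were Benjamini-Hochberg adjusted over all genes and called below 0.05, and 95% intervals are 1.96 SE on either side. Each library is a separate fish; no batch is given, so p-values measure the spread between these fish. On simulated counts of 15610 genes for 1 dpci minus uninjured, 86% of 1.5-fold and 100% of 2-fold changes were recovered, with 32 false calls. In this simulation the false calls were a larger share of all calls than the 0.05 that the threshold aims at. Calls with an adjusted p close to 0.05 are weaker for it. The changed genes were drawn only from well-counted genes. Recovery was therefore not measured at the depth of nrf1, esrra, ppargc1a, pparab and pparg, whose mean counts were 0.443 to 18.1 per library. Relations to the OXPHOS mean used log2 CPM (prior count 2) and 100000 permutations (Python 3.11.15, scipy 1.17.1). Alternatives used limma 3.58.1, DESeq2 1.42.0, other filters and scalings, 1 RUVg factor and left-out libraries or strains.

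The text names all 8 listed genes, the 3 genes most like each member of at least 5 CPM, and at most 3 called genes per list and contrast, those with the largest changes. ncoa2, prkaa2, rxrbb, cpt1b, acsl1a, acsl1b and plin1 were added after their values were seen. The members and lists were chosen with earlier results of these data known. No sequence is printed, since no sequence table or genome of the build was used.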

Additional observations from a re-analysis of the deposited data

How the results depend on the processing

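Across 17 alternative settings ppargc1b kept its call at both steps in 16, ppargc1a in 16 (1 dpci minus uninjured) and 14 (7 minus 1 dpci), and tfam in 15 each; all 3 kept both in 61 of 61 fits without 1 library. For 1 dpci minus uninjured the 3 called members became 0 with 1 RUVg factor, 1 with a 2-fold threshold and 4 with limma on the deposited values and without WIK (pparg added) or SAT (pparab added). For 7 minus 1 dpci they became 0 and 1, and 5 with limma on the deposited values and without WIK, where esrra and pparg were added. With esrra alone added they became 4 in several other settings, among them upper-quartile factors, the stricter filter and DESeq2. The pparg calls are not read as results, since a single AB fish at 1 dpci brought the gene into the tests. WIK, moreover, is the strain without a pparg count at 1 dpci. With the RUVg factor ppargc1a and tfam changed sign at 1 dpci relative to uninjured fish (0.0314 and 0.0347, edgeR adjusted p of 1 for each). For ppargc1a between 7 and 1 dpci, leaving out TU gave 0.93 (edgeR adjusted p = 0.0512) and leaving out NA and TU 0.81 (0.156). Among strains, the 1 call in uninjured fish became 0 without NA, 0 without TU and 0 without both, and the 1 call at 7 dpci became 0 without TU and 0 without NA and TU, and 2 with RUVg and 2 with DESeq2, which added tfam (edgeR adjusted p = 0.0464, DESeq2 adjusted p = 0.0405). The interaction for 7 dpci minus uninjured had 0 calls, but 2 with no filter on low counts (esrra 0.0011, ppargc1b 0.0472), 1 with limma on the deposited values (esrra 0.0397), 1 with DESeq2 (0.0389) and 1 without WIK (0.0497), all adjusted p; without KCL replicate 67 at 7 dpci it was 0.0403. Within strains the 3 calls became 5 with no filter, 5 with DESeq2, 1 with RUVg, 1 without TU and 0 without NA and TU.

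Of the 89 nuclear OXPHOS genes, the 79 called at 1 dpci and the 78 between 7 and 1 dpci each became 0 with RUVg and 1 past 2-fold. The 7 called between 7 dpci and uninjured fish became 3 with RUVg, 11 with DESeq2, 3 without KCL, 16 without NA, 4 without SAT, 3 without WIK and 0 past 2-fold. Without 1 library at a time, counts of called members ranged over 3 to 4 at each of the first 2 steps, 0 to 1 for the interaction of 7 dpci minus uninjured and 1 to 4 within strains, and the OXPHOS counts over 77 to 80, 73 to 80 and 5 to 8. The causes were not tested, other than that fewer libraries or strains enter those fits. With limma-voom 2747 genes were higher and 3241 lower at 1 dpci (45.9% higher against 57.3% in edgeR), with a median over all genes of -0.12 against 0.07.

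Replicate numbers do not pair fish: same-numbered libraries deviated together with a mean r of 0.0107 over 33 pairs (-0.0721 to 0.0983). With the replicate block in the uninjured libraries, 1 member was called among strains, as without it (ppargc1b, edgeR adjusted p = 6.82e-05). Depth limits ppargc1a, pparab and above all pparg, which had 27 counts in all.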
